A study of Mus musculus with 12 samples.

Results

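The 51 genes described here encode the contractile apparatus of skeletal muscle, its calcium release and excitation machinery, and the enzymes that fuel it. They were chosen by symbol and by function, though with earlier results of these data known. All 51 were found among the 35976 genes listed for each library. All 51 also passed the filter on low counts that left 18853 genes for testing. By their best-known fibre type, 16 were classed as fast-fibre genes, 10 as slow-fibre genes and 25 as genes that both fibre types use. Total RNA was taken from back-skin scars of male mice aged 8 to 12 weeks and sequenced as 12 bulk libraries, 3 mice in each of 4 groups. *Tem1* (listed as Cd248, the gene for endosialin) was intact in the *Tem1*WT/WT mice (WT) and was replaced in every tissue by the *lacZ* reporter gene in the *Tem1*lacZ/lacZ mice (lacZ), which had been backcrossed to C57BL/6 J. On day 6 after a scalpel wound each mouse received a plastic device, which was then elongated by 8 mm in total in the traction groups (WTTR and lacZTR) and was not elongated in the sham groups (WTSH and lacZSH). No unwounded skin and no isolated muscle was measured, the upper and lower margins of each scar had been cut away, and each library came from a part of a scar, and the depth of tissue included is not given in the sources used here.

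Striated muscle is built from sarcomeres, in which myosin thick filaments pull on actin thin filaments between Z-discs, while titin and nebulin set the length of the filaments. A nerve impulse excites the surface membrane and acts through its calcium channel on the ryanodine receptor, which releases stored calcium. Troponin on the thin filament then lets myosin bind. Fast and slow fibres use different genes for many of the same parts. Mouse back skin carries a thin sheet of such muscle, the panniculus carnosus, which lies beneath the dermis and its fat and is made mostly of fast fibres.

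The libraries held 41536788 to 64644293 counts on genes. Cd248 followed the labels, at 92.4 to 337 CPM (counts scaled to a common library total) in the 6 WT libraries and 0 to 0.248 CPM in the 6 lacZ libraries. CPM values for genes are scaled by the trimmed mean of M-values (TMM) throughout, unless stated otherwise. For the muscle genes a single WT sham library stood apart from the other libraries. WT sham 1 was the highest of all 12 libraries for 45 of the 51 genes, and WT traction 2 or WT traction 3 was the lowest for 47 of the 51. WT traction 1 was also unlike its group in another respect, since 10 neutrophil genes summed to 7740 CPM in it and to 121 to 780 CPM in the others. For traction in WT mice, many estimates are also given without these libraries, since they moved by more than 1.5 times.

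Muscle transcripts were a small and very variable part of these scars. Of all counts, the 51 genes took 2.82% in WT sham 1 (95% Wilson interval 2.812 to 2.822%), 0.759% in WT sham 2 (0.7574 to 0.7616%) and 0.3% in WT sham 3 (0.2990 to 0.3018%). They took 0.402% in WT traction 1 (0.4004 to 0.4040%), 0.109% in WT traction 2 (0.1077 to 0.1096%) and 0.111% in WT traction 3 (0.1097 to 0.1114%). The lacZ sham libraries gave 0.501% (0.4990 to 0.5033%), 0.268% (0.2667 to 0.2698%) and 0.724% (0.7215 to 0.7263%), and the lacZ traction libraries 0.541% (0.5392 to 0.5436%), 0.404% (0.4025 to 0.4061%) and 0.339% (0.3371 to 0.3402%). The intervals cover counting error only and are far narrower than the spread between mice. Group means were 1.29% ± 1.34 in WT sham, 0.207% ± 0.169 in WT traction, 0.498% ± 0.228 in lacZ sham and 0.428% ± 0.103 in lacZ traction (SD, n = 3 each). WT traction 2 and 3 lay below all other libraries, whereas WT traction 1 lay above WT sham 3, so the WT groups overlapped. Without WT sham 1 the WT sham mean was 0.530%. Some of the 51 genes are also made by other cells, and over the 46 that are not, WT traction 1, 2 and 3 were at 0.319, 0.0643 and 0.0682%. Group means over the 46 were 1.22% in WT sham, 0.15% in WT traction, 0.45% in lacZ sham and 0.378% in lacZ traction. In bulk tissue, fewer muscle fibres and less of each transcript per fibre cannot be told apart.

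**Figure D1:**
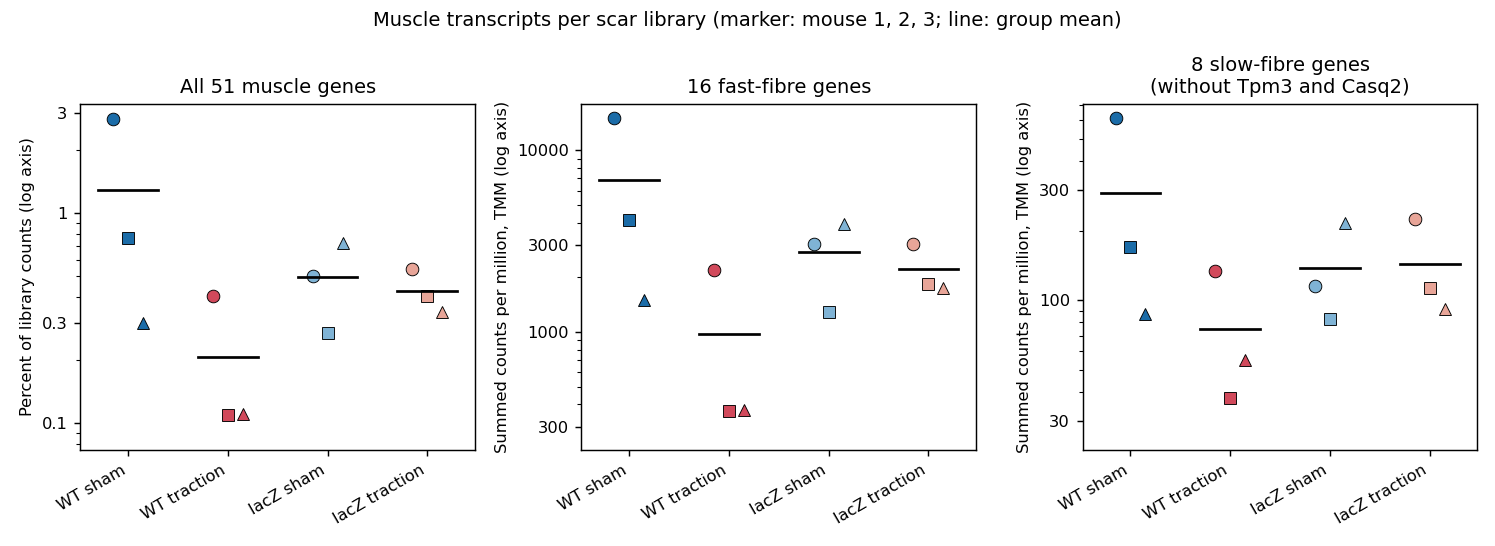
Share of library counts on all 51 muscle genes (left, percent) and summed TMM-scaled CPM of the 16 fast-fibre genes (middle) and of the 8 slow-fibre genes other than *Tpm3* and *Casq2* (right), on log axes, with a point for each mouse and a line at the group mean. WT traction 2 and 3, at 0.109 and 0.111%, are the lowest in the left panel, and WT sham 1, at 2.82%, the highest.

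Counts were divided by the length of all annotated exons of a gene, pooled over its transcripts, to compare genes of unequal length roughly. Genes with much exon outside the transcript in use come out too low, which may touch *Myh7* (8616 bases, *Myh4* 6016). Per kilobase, skeletal muscle actin *Acta1* was the highest of the 51 genes with a mean of 300 CPM per kb over the 12 libraries. It was followed by fast troponin T *Tnnt3* (195), the fast regulatory light chain *Mylpf* (174) and the heavy chain *Myh1* (153). The lowest were the slow heavy chain *Myh7* (0.225), the slow essential light chain *Myl3* (0.238) and the slow regulatory light chain *Myl2* (0.553). *Myh7* received 6 to 15 reads in each lacZ library and 578 in WT sham 1, and *Myl2* 4 to 27 reads in 10 of the 12 libraries. The heart genes *Myh6*, *Nppa* and *Myl7* were close to absent, with at most 0.109, 0.131 and 0.595 CPM. The list of 11 developmental and cardiac genes that holds them summed to 221 to 878 CPM in a library, *Myh3* and *Myh8* included. Levels of the other heart genes on that list are not given here. The levels thus matched the skeletal muscle label, with the fast forms far above the slow ones.

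Fast heavy chains made up nearly all adult sarcomeric myosin. *Myh2* (chr11:67171027-67197517), *Myh1* (chr11:67200102-67224577) and *Myh4* (chr11:67237812-67260447) stand side by side in GRCm38 and encode the IIA, IIX and IIB chains, from slower to faster fast fibres, while slow *Myh7* lies apart (chr14:54970684-54994626). As a share of counts per kb over these 4 genes, *Myh1* ranged from 48.7 to 77.6% between libraries, *Myh2* from 5.61 to 40.6% and *Myh4* from 2.48 to 43.8%. Each group held libraries with a high and with a low share of *Myh4*: 43.1 and 12.2% in WT sham, 28.8 and 7.33% in WT traction, 43.8 and 2.48% in lacZ sham, 24.1 and 17.4% in lacZ traction. *Myh7* did not exceed 0.109% in 11 libraries and was 3.41% in WT traction 3, the library in which *Myh2* also had its largest share. The division between the 3 fast chains carries an uncertainty, because 9.46% of the 100-base windows of the *Myh1* transcript, 9.17% of those of *Myh2* and 3.85% of those of *Myh4* occurred in another of the sarcomeric heavy chain transcripts compared, and the handling of reads with several matches is not given in the sources used here. *Myh7* had no such window.

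Many of these genes share short promoter motifs that muscle transcription factors are known to bind, namely the E-box CAGCTG of MyoD and its relatives, the MEF2 element and the CArG box of serum response factor. RefSeq promoters (GRCm38.p6) were available for 39 of the 51 genes, in 47 windows of the 250 bases before a transcript start, and both strands were searched. CAGCTG was found in 44.7% of these windows against 13.0% of 32817 windows of all genes, the MEF2 element in 17.0% against 2.92%, and the CArG box in 12.8% against 1.47%. Any of the 3 was found in 63.8% against 16.8%. A match describes the letters only. The sequences below are those of *Acta1*, the most abundant member, the heavy chains *Myh1* and *Myh4*, and *Ppp1r3a* and *Xirp2*, a pair of the genes that fell with traction, each read 5′ to 3′ towards the start of transcription with the motif matches in capitals.
Acta1 (chr8:123894776-123895025, minus strand): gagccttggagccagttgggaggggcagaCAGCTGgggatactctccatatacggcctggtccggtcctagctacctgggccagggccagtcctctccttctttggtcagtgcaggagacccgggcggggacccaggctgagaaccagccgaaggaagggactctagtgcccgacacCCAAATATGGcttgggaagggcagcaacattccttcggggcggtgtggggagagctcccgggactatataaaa
Myh1 (chr11:67199852-67200101, plus strand): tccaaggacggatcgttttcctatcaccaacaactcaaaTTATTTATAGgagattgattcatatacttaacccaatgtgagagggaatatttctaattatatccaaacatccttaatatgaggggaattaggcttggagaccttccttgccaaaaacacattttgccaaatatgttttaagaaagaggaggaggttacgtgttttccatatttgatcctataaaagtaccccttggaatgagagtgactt
Myh4 (chr11:67237562-67237811, plus strand): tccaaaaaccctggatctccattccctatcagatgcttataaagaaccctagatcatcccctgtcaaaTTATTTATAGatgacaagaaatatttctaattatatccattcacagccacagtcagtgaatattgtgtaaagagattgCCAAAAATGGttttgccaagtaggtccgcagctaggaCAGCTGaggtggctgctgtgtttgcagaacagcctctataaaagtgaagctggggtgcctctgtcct
Ppp1r3a (chr6:14755275-14755524, minus strand): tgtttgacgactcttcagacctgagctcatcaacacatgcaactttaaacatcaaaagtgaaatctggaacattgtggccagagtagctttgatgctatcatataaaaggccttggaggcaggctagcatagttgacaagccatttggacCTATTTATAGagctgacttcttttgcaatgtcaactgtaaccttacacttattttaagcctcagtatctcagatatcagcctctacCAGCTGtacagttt
Xirp2 (chr2:67445752-67446001, plus strand): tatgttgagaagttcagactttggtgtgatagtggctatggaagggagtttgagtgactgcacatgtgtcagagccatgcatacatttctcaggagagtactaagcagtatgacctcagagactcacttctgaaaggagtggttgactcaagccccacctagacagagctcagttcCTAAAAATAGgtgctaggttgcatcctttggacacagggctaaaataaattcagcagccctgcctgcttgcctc
*Acta1* held CAGCTG and a CArG box, *Myh1* a MEF2 element, *Myh4* all 3 motifs, *Ppp1r3a* CAGCTG and a MEF2 element, and *Xirp2* a MEF2 element. The MEF2 match was the same 10 letters in *Myh1* and *Myh4*.

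The comparison of traction with sham in WT mice asks what stretching a wild-type scar does to these transcripts. None of the 51 genes was called higher and 6 were called lower by edgeR's quasi-likelihood test (adjusted p under 0.05, Benjamini-Hochberg over all genes tested), while 5.61% of all genes tested were called higher and 3.54% lower. The 6 were *Trdn*, *Xirp2*, *Ppp1r3a*, *Tcap*, *Myoz1* and *Ldb3*. The estimate lay below 0 for 48 of the 51 genes (50.6% of all genes), with a median log2 fold change of -2.46 (-0.01 over all genes). At an unadjusted p under 0.05, 35 were lower and 1 was higher, against 14.7 and 16.7% of all genes, and the count in both directions was 36 with all libraries and 17 without WT sham 1. The libraries of the WT groups did not overlap for 8 genes that were lower (*Myh2*, *Mylpf*, *Myoz1*, *Casq1*, *Trdn*, *Xirp2*, *Ppp1r3a* and *Pvalb*) and 1 that was higher (*Tpm3*), against 18 and 17.7% of all genes. Calls lower, and still more the common direction and the size of the estimates, were thus more frequent among the muscle genes than in the whole table, whereas groups without overlap were not.

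The 6 calls depended on which libraries were in the fit. Without WT sham 1 no muscle gene was called lower, without WT sham 2 none, without WT sham 3 17, without lacZ sham 1, 2 and 3 in turn 2, 2 and 0, without WT traction 1, 2 and 3 in turn 9, 2 and 1, and without lacZ traction 1, 2 and 3 in turn 4, 2 and 2. Over all genes, no call was left either without WT sham 1 or without WT sham 2. The median of the 51 was -1.23 without WT sham 1 and -3.43 without WT traction 1, and without both of them no gene of the 51 was called. DESeq2 called 31 of the 51 lower and 1 higher, where it called 4047 of 18853 genes, 1813 of them lower. Limma-voom with sample weights called 2 of the 51 lower, neither of them among the 6, and 127 of all genes lower.

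**Figure D2:**
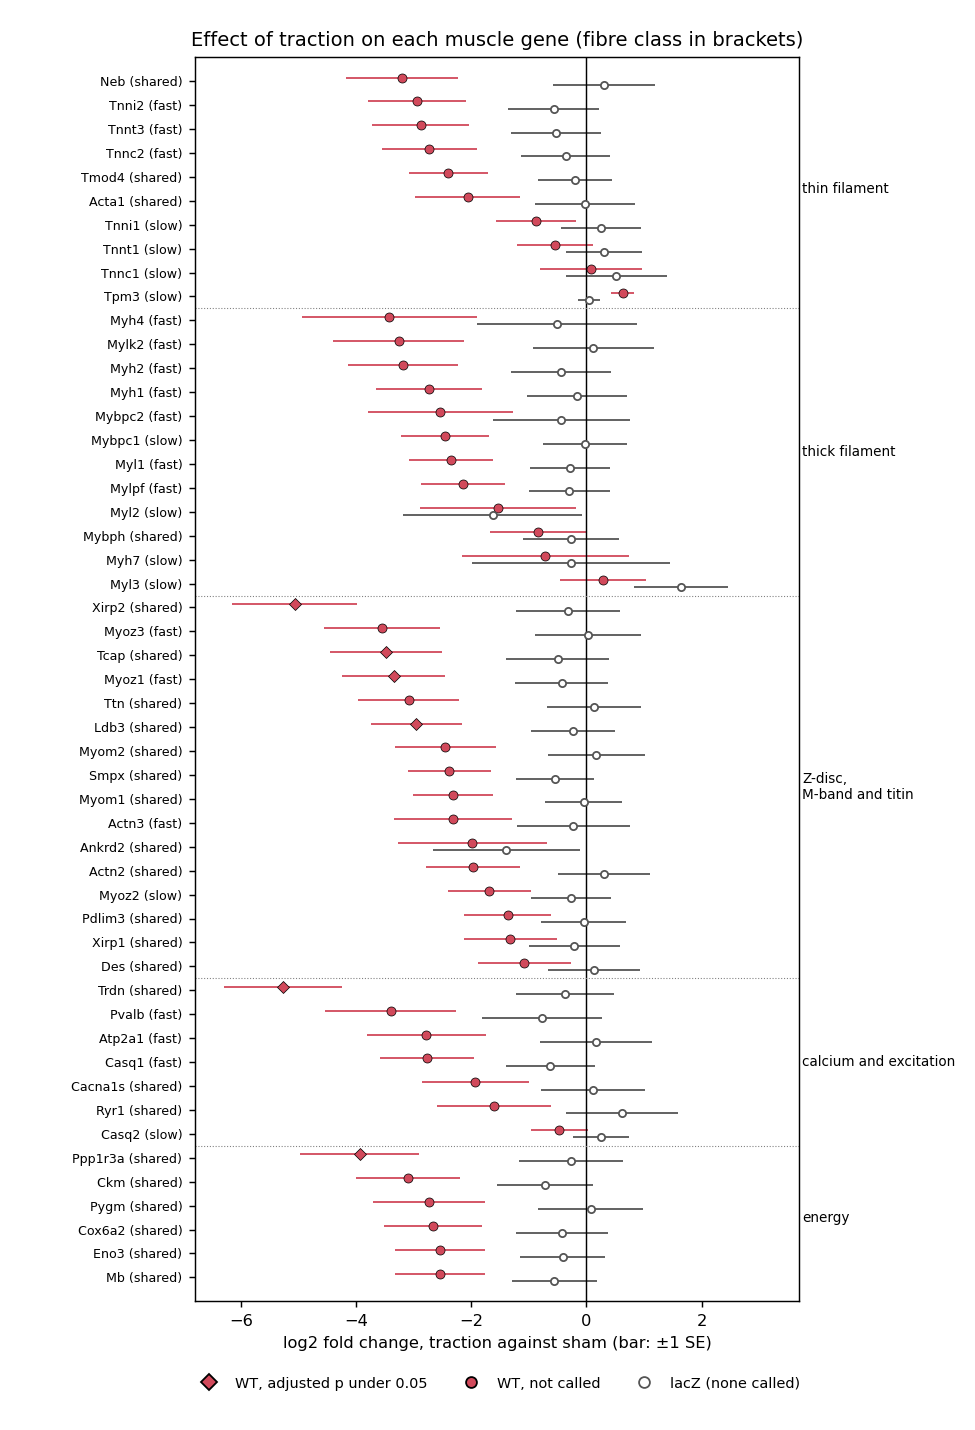
Log2 fold change of traction against sham with its standard error for each of the 51 genes, grouped by role, in WT (red, diamonds where the adjusted p was under 0.05) and lacZ mice (open circles). In WT, 48 estimates lie left of 0 and the lowest are *Trdn* (-5.27) and *Xirp2* (-5.07), while the lacZ estimates lie around 0.

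Of the calcium and excitation genes, 1 of 7 was called by edgeR, with a median log2 fold change of -2.77. Triadin, *Trdn* (chr10:33083483-33476709), ties the calcium store protein calsequestrin to the ryanodine receptor. It stood at 247, 60.4 and 28.4 CPM in WT sham and at 5.26, 2.85 and 0.637 CPM in WT traction, from 221, 129 and 31 reads in the latter. The groups were far apart, and lacZ sham (69.2, 35.5 and 117 CPM) and lacZ traction (99.2, 45.3 and 27.7 CPM) both resembled WT sham. *Trdn* fell by 5.27 on the log2 scale with traction in WT mice (SE 1.02, edgeR adjusted p = 0.0278), and was called in 17 of 23 alternative analyses, though not by limma-voom, in the 6 WT libraries alone, or without WT sham 1 (-3.95, adjusted p = 0.116), WT sham 2 (-5.54, adjusted p = 0.0869) or lacZ sham 3 (-5.26, adjusted p = 0.0502). The calcium pump of fast fibres *Atp2a1* measured 1670, 431 and 93.1 CPM in WT sham and 250, 24.2 and 44.0 CPM in WT traction (log2 fold change -2.78, SE 1.04, edgeR adjusted p = 0.0986). Fast calsequestrin *Casq1* went from 178, 66.9 and 32.5 CPM to 27.6, 6.36 and 6.70 CPM, groups that did not overlap (-2.77, SE 0.82, edgeR adjusted p = 0.0565). The calcium buffer parvalbumin, *Pvalb*, gave -3.40 (SE 1.14, edgeR adjusted p = 0.0763), and the ryanodine receptor *Ryr1* -1.60 (SE 0.99, edgeR adjusted p = 0.289). *Ryr1* thus differed much less than its partner *Trdn*, and in WT traction 1 it was at 96 CPM, above WT sham 2 (70.8 CPM). DESeq2 also called *Casq1* (adjusted p = 0.00284), *Pvalb* (adjusted p = 0.0162) and *Atp2a1* (adjusted p = 0.0361) lower. The estimates without WT sham 1 were -1.32 for *Atp2a1*, -2.26 for *Pvalb* and -0.28 for *Ryr1*, and without WT traction 1 they were -4.44, -5.65 and -3.40.

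Among 16 genes of the Z-disc, the M-band and titin, 4 were called lower by edgeR and all 16 estimates lay below 0, with a median of -2.35. *Xirp2* (chr2:67446000-67526620), an actin-binding protein of the sarcomere's edge, measured 982, 135 and 81.3 CPM in WT sham and 19.7, 10.8 and 5.10 CPM in WT traction. The lacZ sham libraries gave 64.3, 84.0 and 237 CPM and the lacZ traction libraries 184, 77.4 and 47.1 CPM, so that WT traction lay apart from the other groups. *Xirp2* fell by 5.07 on the log2 scale (SE 1.08, edgeR adjusted p = 0.0311) and was called in 14 of 23 alternatives. Telethonin, *Tcap* (chr11:98383811-98384953), which caps titin at the Z-disc, measured 270.0, 54.5 and 14.8 CPM against 21.2, 2.76 and 6.51 CPM, and WT traction 1 was above WT sham 3. It fell by 3.48 (SE 0.97, edgeR adjusted p = 0.0494). The calsarcin *Myoz1* of fast fibres (chr14:20649102-20656540) measured 110.0, 27.1 and 11.7 CPM against 10.1, 2.69 and 1.75 CPM and fell by 3.35 (SE 0.89, edgeR adjusted p = 0.0439). *Ldb3* (chr14:34526699-34590314), which binds alpha-actinin, measured 209, 43.4 and 17.1 CPM against 19.5, 6.03 and 9.02 CPM, with WT traction 1 just above WT sham 3, and fell by 2.96 (SE 0.79, edgeR adjusted p = 0.0441). *Tcap* and *Ldb3* were each called in 8 of 23 alternatives and *Myoz1* in 10. Without WT sham 1 the estimates were -3.20 for *Xirp2* (edgeR adjusted p = 0.118), -1.78 for *Tcap* (0.202), -2.01 for *Myoz1* (0.165) and -1.40 for *Ldb3* (0.169), and none was called.

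Titin, *Ttn* (chr2:76703980-76982557), the spring that spans the sarcomere from Z-disc to M-band, measured 1300, 289 and 112 CPM in WT sham and 133, 37.7 and 29.7 CPM in WT traction (log2 fold change -3.09, SE 0.88, edgeR adjusted p = 0.0516). Only WT traction 1 reached into the sham range. Fast alpha-actinin *Actn3* gave -2.32 (SE 1.03, edgeR adjusted p = 0.151). The intermediate filament desmin, *Des*, which vascular smooth muscle also makes, measured 607, 162 and 77.9 CPM against 274, 53.1 and 73.7 CPM, with broad overlap (-1.08, SE 0.81, edgeR adjusted p = 0.385), and without WT sham 1 its estimate turned to 0.15. Without that library *Ttn* was at -1.60 and *Actn3* at -1.02, and without WT traction 1 *Actn3* was at -4.36 and *Des* at -2.17. DESeq2 called *Ttn* lower (adjusted p = 0.00135).

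None of the 10 thin filament genes was called by edgeR in WT mice (5.61 and 3.54% of all genes, as above), 6 were lower and 1 higher at an unadjusted p under 0.05, and their median log2 fold change was -2.23. *Acta1* (chr8:123891758-123894775) measured 2140, 488 and 175 CPM in WT sham and 494, 56.1 and 123 CPM in WT traction, with WT traction 1 above WT sham 2. Its estimate was -2.06 (SE 0.91, edgeR adjusted p = 0.149). Fast troponin T *Tnnt3* measured 1180, 309 and 144 CPM against 154, 35.0 and 32.5 CPM, and its estimate was -2.88 (SE 0.84, edgeR adjusted p = 0.0541). The fast troponins I and C, *Tnni2* and *Tnnc2*, gave -2.95 (SE 0.85, edgeR adjusted p = 0.0530) and -2.73 (SE 0.82, edgeR adjusted p = 0.0586), and nebulin, *Neb*, the thin filament ruler, gave -3.20 (SE 0.97, edgeR adjusted p = 0.0600). DESeq2 called *Tnnt3* (adjusted p = 0.00208), *Tnni2* (0.0018), *Tnnc2* (0.0033) and *Neb* (0.00216) lower and *Acta1* not (0.0529). When WT sham 1 was left out, the estimates were -0.57 for *Acta1*, -1.62 for *Tnnt3*, -1.68 for *Tnni2*, -1.63 for *Tnnc2* and -1.86 for *Neb*, and without WT traction 1 *Acta1* was at -3.41.

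The slow thin filament genes lay much nearer to 0. Slow troponin T *Tnnt1* measured 19.8, 11.4 and 6.45 CPM in WT sham and 15.9, 3.73 and 6.18 CPM in WT traction, an estimate of -0.55 (SE 0.66, edgeR adjusted p = 0.603). Slow troponin I *Tnni1* gave -0.88 (SE 0.70, edgeR adjusted p = 0.421). *Tnnc1*, the troponin C of slow and heart muscle, measured 6.99, 7.49 and 4.57 CPM against 14.5, 2.34 and 3.37 CPM, so that WT traction 1 was higher and WT traction 2 and 3 lower than each sham library, and the estimate of 0.08 (SE 0.88, edgeR adjusted p = 0.960) turned to -0.06 with upper quartile scaling and to -1.17 without WT traction 1. *Tpm3* (chr3:90072651-90100902), a slow-fibre tropomyosin that cells other than muscle also make, was the only member whose WT traction libraries all lay above WT sham, at 612, 379 and 373 CPM against 271, 294 and 316 CPM. Its estimate was 0.63 (SE 0.20, edgeR adjusted p = 0.0619), and it was called higher by DESeq2 (adjusted p = 0.0171) and by edgeR without WT traction 2 (adjusted p = 0.0386). Without WT sham 1 *Tnnt1* was at -0.06, and without WT traction 1 *Tnnt1* was at -1.36 and *Tnni1* at -1.82. In WT traction 2 and 3 *Tpm3* alone held 34.0 and 30.3% of the counts on the 51 genes, while *Myh1* was the leading gene in the other 10 libraries.

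None of the 12 thick filament genes was called by edgeR either, with 7 lower at an unadjusted p under 0.05 and a median of -2.41. DESeq2 called *Myh2* (adjusted p = 0.00164), *Myh1* (0.00766) and *Mylpf* (0.0142) lower. *Myh1* measured 4540, 1180 and 569 CPM in WT sham and 718, 146 and 81.7 CPM in WT traction (log2 fold change -2.73, SE 0.92, edgeR adjusted p = 0.0781). *Myh2* measured 1290, 145 and 83.8 CPM against 70.1, 19.5 and 76.4 CPM, groups that just failed to overlap (-3.19, SE 0.95, edgeR adjusted p = 0.0564). *Myh4*, the fastest chain, measured 2620, 937 and 84.7 CPM against 298, 28.6 and 11.6 CPM (-3.43, SE 1.52, edgeR adjusted p = 0.152). *Mylpf* gave -2.14 (SE 0.73, edgeR adjusted p = 0.0799). For *Myh7* the WT libraries were at 12.5, 0.856 and 0.164 CPM in sham and 0.190, 0.199 and 7.77 CPM with traction, and a single library of each group carried nearly all of its reads. Its estimate of -0.72 (SE 1.45, edgeR adjusted p = 0.769) became 2.40 without WT sham 1. Without that library *Myh1* was at -1.48, *Myh2* at -1.05, *Myh4* at -2.19 and *Mylpf* at -1.43, and without WT traction 1 *Myh1* was at -4.21 and *Myh4* at -5.93. *Myl3*, at 0.261 to 1.09 CPM in sham and 0.265 to 1.44 CPM with traction, gave 0.29 (SE 0.75, edgeR adjusted p = 0.827), 1.21 without WT sham 1 and -0.98 without WT traction 3.

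Of 6 energy genes, 1 was called by edgeR and all 6 had estimates below 0, with a median of -2.70. *Ppp1r3a* (chr6:14713822-14755274), which brings a phosphatase to muscle glycogen, measured 62.1, 18.5 and 5.16 CPM in WT sham and 4.31, 0.861 and 0.452 CPM in WT traction. The lacZ libraries gave 10.1, 2.94 and 13.0 CPM in sham and 9.39, 6.92 and 5.34 CPM with traction, all but 1 above the highest WT traction library. *Ppp1r3a* fell by 3.94 in WT mice (SE 1.03, edgeR adjusted p = 0.0424) and was called in 10 of 23 alternatives. Muscle creatine kinase *Ckm*, which buffers ATP, measured 1030, 249 and 99.1 CPM against 117, 19.1 and 24.3 CPM (-3.10, SE 0.91, edgeR adjusted p = 0.0553). Myoglobin, *Mb*, the oxygen store, gave -2.54 (SE 0.78, edgeR adjusted p = 0.0623), and the muscle cytochrome oxidase subunit *Cox6a2* -2.66 (SE 0.85, edgeR adjusted p = 0.0688). DESeq2 called *Ckm* (adjusted p = 0.00177), *Mb* (0.00499) and *Cox6a2* (0.00608) lower. Leaving out WT sham 1 gave estimates of -2.68 for *Ppp1r3a* (edgeR adjusted p = 0.151), -1.71 for *Ckm*, -1.32 for *Mb* and -1.18 for *Cox6a2*.

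Set apart by fibre class, the fast genes had estimates further from 0 than the slow ones in WT mice. All 16 fast genes had estimates below 0, from -3.55 to -2.14, with a median of -2.83, 1 called by edgeR and 15 at an unadjusted p under 0.05. Of the 10 slow genes 7 were below 0, with a median of -0.63, none called by edgeR (DESeq2 called *Tpm3* higher) and 2 lower and 1 higher at an unadjusted p under 0.05. The 25 shared genes had a median of -2.45 and 5 calls. Leaving out *Tpm3* and *Casq2*, which other cells also express, the slow median was -0.80 over 8 genes. Without WT sham 1 the fast and slow medians were -1.58 and 0.04, and without WT traction 1 they were -4.28 and -1.11, so the order held while the sizes moved by more than 1.5 times. The slow class was not uniform: the slow myosin binding protein *Mybpc1* gave -2.46 (SE 0.77, edgeR adjusted p = 0.0639). The difference between the classes was not tested.

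Within a library, the ratio of a fast to a slow gene does not depend on the amount of muscle transcript if only muscle expresses both. Whether other cells supplied reads of the slow genes was not tested. Among troponin T counts per kb, the share on fast *Tnnt3* was 98.8, 97.4 and 96.9% in WT sham, 93.1, 92.9 and 88.0% in WT traction, 98.3, 97.6 and 97.7% in lacZ sham and 95.6, 97.4 and 96.9% in lacZ traction. For troponin I, the share of *Tnni2* was 90.5, 88.4 and 89.3% in WT traction and 92.3 to 98.6% in the other 9 libraries. For troponin C, the share of *Tnnc2* was 84.6, 89.0 and 83.7% in WT traction and 90.3 to 98.7% elsewhere. In each of these 3 pairs every WT traction library lay below every other library. The share of *Casq1* in calsequestrin behaved alike, at 58.2, 39.3 and 39.7% in WT traction and 59.8 to 89.7% elsewhere, though *Casq2* is not confined to muscle. Over 5 pairs together (heavy chains included) the fast share was 88.7% in WT traction, 96.9% in WT sham, 96.6% in lacZ sham and 94.8% in lacZ traction, and for WT traction it stayed between 87.1 and 90.5% when any library of the group was left out. The closest library outside the group was lacZ traction 1 in all 4 pairs. The same did not hold for the other 3 of 7 pairs, whose fast shares overlapped with the other groups: the heavy chains (up to 100% in WT traction, lowest 99.9% elsewhere), myozenin (*Myoz1* and *Myoz2*, 72.7 and 62.2%) and myosin binding protein C (*Mybpc2* and *Mybpc1*, 59.8 and 24.2%). Over all 7 pairs the fast share was 84.2% in WT traction, 93.7% in WT sham, 93.7% in lacZ sham and 91.3% in lacZ traction. These shares are a description, with no test.

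**Figure D3:**
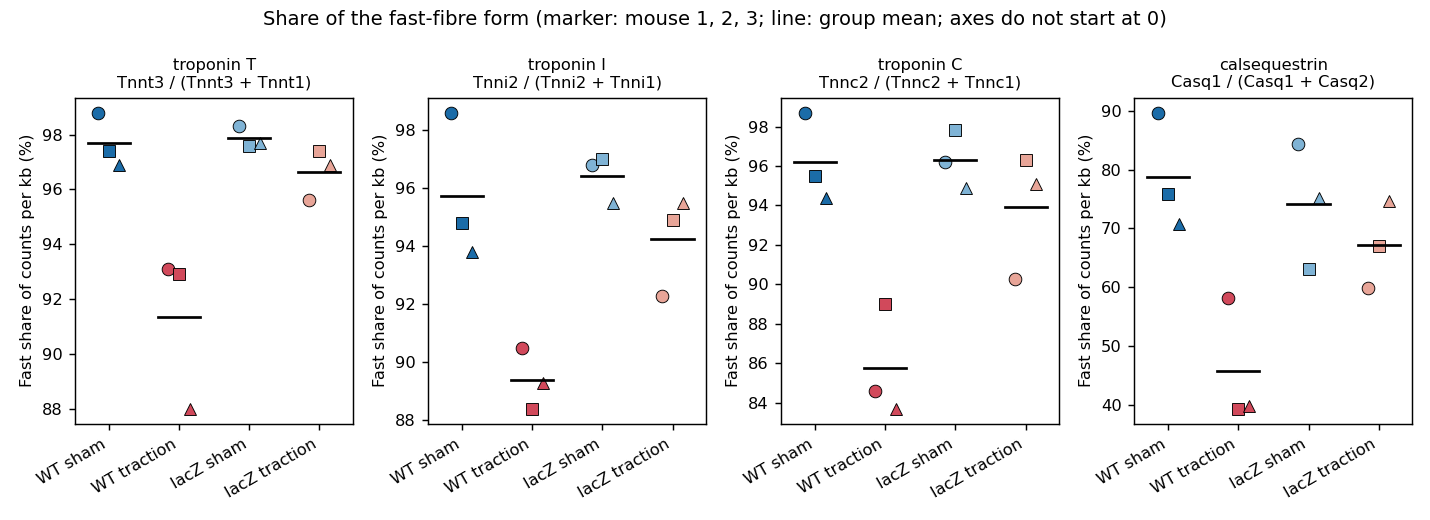
Share of the fast-fibre form in the counts per kb of 4 pairs of fast and slow genes, a point for each mouse and a line at the group mean. In every panel the 3 WT traction libraries lie below the other 9, for example at 88.4 to 90.5% against 92.3 to 98.6% for troponin I.

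Each gene was also set against the median of the 51 in the same library (log2 of CPM by library total with 0.1 added, minus that median), which shows the genes that departed from the common pattern. *Trdn* stood at -2.75, -1.21 and -3.40 in WT traction and between -0.02 and 1.12 in the other 9 libraries. *Xirp2* stood at -0.87, 0.68 and -0.60 in WT traction and between 0.77 and 2.16 elsewhere. *Ppp1r3a*, *Pvalb* and *Ckm* were likewise below all other libraries in the 3 WT traction libraries, *Pvalb* and *Ckm* by a small margin (highest -0.83 and 1.69 in WT traction, lowest -0.81 and 1.71 elsewhere). That these 5 were lowest in WT traction restates how they were picked and was not tested. In the other direction, *Des* (2.92, 2.97 and 3.23 against 1.27 to 2.04) and *Tpm3* (4.08, 5.80 and 5.57 against 0.14 to 3.83) lay above all other libraries. *Ttn*, at 1.88 to 2.47 in WT traction and 1.82 to 2.40 elsewhere, kept to the median pattern. These 7 genes were picked out after their values were seen.

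**Figure D4:**
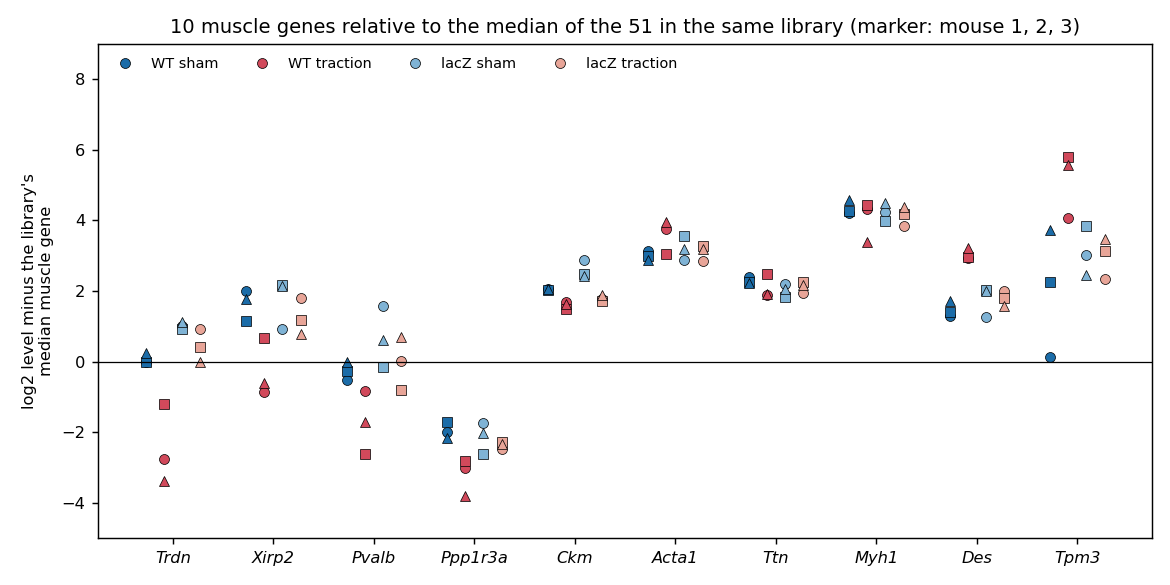
Log2 level of 10 muscle genes minus the median of the 51 in the same library, for the 12 libraries by group. *Trdn* and *Xirp2* are lowest in WT traction (-3.40 to -1.21 and -0.87 to 0.68), *Des* and *Tpm3* are highest there, and *Ttn* varies little.

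In lacZ mice no muscle gene passed the test for traction against sham. None of the 51 was called in either direction by edgeR, as for the whole table (0% of all genes), and none had an unadjusted p under 0.05 (8.12% of all genes, 2.46% lower and 5.66% higher). DESeq2 and limma-voom also called none of them, against 28 and 435 of all 18853 genes. The median log2 fold change was -0.23 (-0.01 over all genes), with 34 of 51 below 0 (51.5% of all genes), and it stayed between -0.54 and 0.15 when any library was left out. Without lacZ sham 3 only 16 of 51 were below 0. The fast genes had a median of -0.40 and the slow genes of 0.15. The groups failed to overlap for *Myl3*, which was higher (6.77% of all genes), and for *Myl2*, which was lower (6.16%). *Myl3* had the highest estimate (1.64, SE 0.81, edgeR adjusted p = 0.623), followed by *Ryr1* (0.62, SE 0.97, edgeR adjusted p = 0.872) and *Tnnc1* (0.52, SE 0.88, edgeR adjusted p = 0.884). *Myl2* (-1.63, SE 1.55, edgeR adjusted p = 0.782), the ankyrin repeat protein *Ankrd2* (-1.39, SE 1.28, edgeR adjusted p = 0.772) and *Pvalb* (-0.77, SE 1.04, edgeR adjusted p = 0.849) had the lowest. *Myl2* and *Myl3* rest on 37 reads or fewer in each lacZ library. For *Trdn* the estimate was -0.37 (SE 0.85, edgeR adjusted p = 0.918) and for *Xirp2* -0.32 (SE 0.91, edgeR adjusted p = 0.938), and both turned positive, to 0.15 and 0.49, without lacZ sham 3. With standard errors of this size, changes of several fold could not be seen in lacZ mice.

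Among mice with traction, most estimates for lacZ against WT scars were positive, and none passed edgeR's test. The estimate was above 0 for 45 of 51 genes, with a median log2 fold change of 1.10 (0.01 over all genes), and edgeR called none, against 0.0106% of all genes called higher and 0.0955% lower. At an unadjusted p under 0.05, 7 were higher and 1 lower (11.1 and 15.1% of all genes, 26.1% in all). The count of 8 in both directions was 35 without WT traction 1, 4 without WT traction 2, 3 without WT traction 3, 19 without WT sham 1, 14 without WT sham 3 and 3 without lacZ traction 1. DESeq2 called *Trdn* and *Xirp2* higher and *Tpm3* lower, and limma-voom called none. DESeq2 made many calls in this comparison, 2334 of 18853 genes, 1465 of them lower. The muscle genes were thus not called more often by DESeq2 than genes in general. The lacZ libraries lay above all WT libraries for 12 genes (*Myh2*, *Myl1*, *Tnnt3*, *Tnnc2*, *Myoz1*, *Myoz3*, *Ldb3*, *Trdn*, *Xirp2*, *Ppp1r3a*, *Tmod4* and *Smpx*) and below them for *Tpm3*, against 12.9 and 13.7% of all genes. *Trdn* had the highest estimate (4.30, SE 0.98, edgeR adjusted p = 0.0855), followed by *Xirp2* (3.11, SE 0.99, edgeR adjusted p = 0.106) and *Pvalb* (2.32, SE 1.09, edgeR adjusted p = 0.208). The lowest were *Myh7* (-3.66, SE 1.69, edgeR adjusted p = 0.199), *Myl2* (-2.74, SE 1.54, edgeR adjusted p = 0.280) and *Tpm3* (-0.65, SE 0.20, edgeR adjusted p = 0.0986). The low values of *Myh7* and *Myl2* came from WT traction 3 and turned to 0.14 and 0.41 without it. Without WT traction 1 the median of the 51 was 2.29.

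In sham mice the comparison of genotypes rested on WT sham 1. With it, 49 of 51 estimates were below 0 in lacZ and the median was -1.17 (-0.01 over all genes), and without it the median was 0.10. None of the 51 was called by edgeR (0.00530% of all genes in each direction), DESeq2 or limma-voom, and 5 were lower and none higher at an unadjusted p under 0.05 (6.62 and 5.03% of all genes). That count was 0 and 20 of 51 estimates were below 0 without WT sham 1, and the count was 20 without WT sham 3, 0 without lacZ sham 1 or 2, 14 without WT traction 1, 8 without WT traction 3, 1 without lacZ traction 1 and 2 without lacZ traction 2 or 3. Only *Myl3* did not overlap, at 0.261 to 1.09 CPM in WT and 0.121 to 0.238 CPM in lacZ (13.8% of all genes were lower without overlap). *Myh7* (-4.11, SE 1.70, edgeR adjusted p = 0.415), *Myl2* (-2.64, SE 1.44, edgeR adjusted p = 0.478) and *Atp2a1* (-2.30, SE 1.02, edgeR adjusted p = 0.425) had the lowest estimates, and *Tnnc1* (0.23, SE 0.88, edgeR adjusted p = 0.938), *Casq2* (0.05, SE 0.49, edgeR adjusted p = 0.974) and *Tpm3* (-0.07, SE 0.19, edgeR adjusted p = 0.906) the highest. *Myl2* turned to 0.70 without WT sham 1.

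Whether traction acted differently in the 2 genotypes was tested as the interaction of genotype and traction. None of the 51 genes was called (0% of all genes in either direction), although 49 estimates were above 0 and 2 below (50.2% of all genes were below) with a median of 2.23 (0.00 over all genes), and 13 were higher and none lower at an unadjusted p under 0.05 (4.46% of all genes in each direction, 8.91% in all). The median was 1.01 without WT sham 1. The count of 13 was 2 without WT sham 1, 30 without WT sham 3, 8 and 6 without lacZ sham 1 and 2, 40, 7 and 8 without WT traction 1, 2 and 3, and 7 without lacZ traction 1. *Trdn* (4.90, SE 1.27), *Xirp2* (4.75, SE 1.35) and *Ppp1r3a* (3.67, SE 1.34) had the highest estimates, each with an edgeR adjusted p of 0.548, which was also the lowest of any gene in this test. Of the 51, DESeq2 called *Trdn* alone (adjusted p = 0.0121), against 69 of all 18853 genes, and limma-voom called none. *Tpm3* (-0.58, SE 0.28, edgeR adjusted p = 0.558), *Myl2* (-0.09, SE 1.77, edgeR adjusted p = 0.992) and *Tnnc1* (0.44, SE 1.25, edgeR adjusted p = 0.936) had the lowest. By edgeR and limma-voom the fall seen in WT mice was thus not shown to differ between genotypes, and by DESeq2 it was for *Trdn* only. The comparisons share groups, and their values are not independent of each other.

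A further 45 skeletal muscle genes were drawn up as a separate list, also with earlier results of these data known. They were read in the same libraries, and a difference in muscle content between libraries would move both lists together. A like picture from this list is therefore not an independent check. Its genes summed to 5130 CPM in WT sham 1 and to 1850 and 1070 CPM in WT sham 2 and WT sham 3. In WT mice 3 of 45 were called lower and none higher with traction (3.54 and 5.61% of all genes), with 44 estimates below 0 and a median of -2.0. *Rpl3l*, a ribosomal protein of striated muscle, measured 29.8, 5.47 and 1.24 CPM in WT sham and 1.33, 0.574 and 0.575 CPM in WT traction and fell by 3.88 (SE 0.95, edgeR adjusted p = 0.0373). Mitochondrial creatine kinase *Ckmt2* fell by 3.40 (SE 0.85, edgeR adjusted p = 0.0386) and *Fsd2* by 2.69 (SE 0.72, edgeR adjusted p = 0.0450), and these estimates were -2.04, -1.90 and -1.54 without WT sham 1. No call on this list was left without WT sham 1, WT sham 2, lacZ sham 1 or 3, lacZ traction 2 or any of the WT traction libraries, and 13 were made without WT sham 3. In lacZ mice none of the 45 was called, with a median of -0.05.

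Genes of other cell types were set beside these values for WT mice, where 5.61% of all genes were called higher by edgeR, 3.54% lower, and 14.7% were lower at an unadjusted p under 0.05. The 10 neutrophil genes summed to 121 to 156 CPM in WT sham and 386 to 7740 CPM in WT traction, and 6 of 10 were called higher. The 16 adipocyte genes, which mark the fat layer next to the skin muscle, summed to 1760 to 2050 CPM in WT sham and 602 to 1370 CPM in WT traction, with all 16 estimates below 0, none called by edgeR and 1 lower at an unadjusted p under 0.05. The 10 fibroblast genes summed to 29700 to 50300 CPM and 48400 to 127000 CPM, ranges that overlap, with 9 of 10 estimates above 0 and 1 called higher. The smooth muscle list, with 3 of 10 estimates below 0 and none called by edgeR, and the keratinocyte list, with 6 of 10 below 0 and 1 called lower, went both ways. In lacZ mice the adipocyte sums were 866 to 5580 CPM in sham and 579 to 3990 CPM with traction, and all 16 estimates were again below 0. The adipocyte median was -0.63 in lacZ mice, with 0 genes at an unadjusted p under 0.05, and -1.15 in WT mice. The muscle genes had a median of -0.23 in lacZ mice, with 34 of 51 below 0, and -2.46 in WT mice. The part of these cell types, of the depth of the cut and of device placement in the muscle values was not tested.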

How the data were processed

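Scars were profiled in bulk, with libraries made from 1.3 ug of total RNA by a stranded mRNA kit. The authors' notes name fastp 0.20.0, HISAT2 2.1.0 and featureCounts 2.0.0 on GRCm38, and the deposited values are raw counts per gene for each library. Not given in the sources used here are the gene annotation, whether strand was used in counting, and what was done with multiply matching reads. Counts were tested in R 4.3.3 with edgeR 4.0.16 (filterByExpr, TMM, robust quasi-likelihood, 1 model of 4 groups with 8 residual degrees of freedom, two-sided, Benjamini-Hochberg over 18853 genes), after a check on simulated counts. DESeq2 1.42.0 and limma 3.58.1 were alternatives. The unit of replication was the mouse (n = 3). Replicate libraries differed far beyond counting noise, and no library was a copy of another. Exon lengths came from GENCODE vM21, as the union of all annotated exons of a gene. Members, fibre classes and marker lists were chosen with earlier results of these data known. Genes were named by rule: defining sarcomere genes, those called, the 3 highest and 3 lowest estimates of each comparison, and those called on the 45-gene list.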

Additional observations from a re-analysis of the deposited data

How the results depend on the processing

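The 51 genes kept a median log2 fold change below 0 for traction in WT mice in all alternatives run, from -3.43 to -1.23, the latter without WT sham 1. The number called lower, 6 as reported, was 1 with no filter on low counts, 13 with upper quartile scaling, 31 with DESeq2, 2 with limma-voom, 21 with a replicate block and 0 in a fit of the 6 WT libraries alone, and ranged from 0 to 17 when a library was left out (0 without both WT sham 1 and WT traction 1, an alternative added after seeing the data). The number called higher was 1 with DESeq2 and ranged from 0 to 1. Over all genes, 668 were called lower as reported. That number was 432 with no filter, 652 with at least 10 counts in every library, 939 with upper quartile scaling, 1813 with DESeq2 and 127 with limma-voom. It was 697 in a fit that was not robust, 675 with the replicate block, 0 in the 6 libraries alone and 0 to 1283 when a library was left out. Of the 45 further muscle genes, 3 were called lower as reported, 0 with no filter, 6 with at least 10 counts in every library, 6 with upper quartile scaling, 26 with DESeq2, 0 with limma-voom, 5 in a fit that was not robust, 8 with the replicate block, 0 in the 6 libraries alone and 0 to 13 when a library was left out. For lacZ against WT with traction DESeq2 called 2 of the 51 higher and 1 lower, and for the interaction 1 higher. Over all 18853 genes it called 2334 (1465 lower) and 69 (47 lower) in these comparisons. Medians ranged, when libraries were left out, from 0.74 to 2.29 for lacZ against WT with traction, from -1.61 to 0.10 for lacZ against WT in sham and from 1.01 to 3.27 for the interaction, and without both WT sham 1 and WT traction 1 the genotype medians were 2.28 with traction and 0.10 in sham. The medians of the fast genes ranged from -4.28 to -1.58 for traction in WT mice, from -1.72 to 0.33 for sham and from 1.26 to 4.08 for the interaction. Upper quartile scaling moved the median of all genes from -0.01 to -0.12 for traction in WT mice and from 0.01 to 0.14 for lacZ against WT with traction. The fast share without the calsequestrin pair was 92.5% in WT traction and 97.8% in lacZ sham, and over all 7 pairs, an alternative added after seeing the data, 93.7% in WT sham, 84.2% in WT traction, 93.7% in lacZ sham and 91.3% in lacZ traction.

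Among the estimates followed by name, those of 8 genes turned sign in at least 1 alternative. Over all 51 genes, the number below 0 for lacZ against WT in sham went from 49 to 20 without WT sham 1 and to 30 with limma-voom, and for traction in lacZ mice from 34 to 16 without lacZ sham 3. For traction in WT mice *Tnnc1* turned to -0.06 with upper quartile scaling, -0.81 with limma-voom, -0.52 with the replicate block and -1.09 without WT sham 1 and WT traction 1, where *Myh7* was 2.94. When libraries were left out, *Tnnc1* ranged from -1.17 to 0.50, *Myh7* from -4.51 to 2.94, *Des* from -2.17 to 0.15 and *Myl3* from -0.98 to 1.57. For traction in lacZ mice *Tnnc1* was -0.77 with limma-voom and ranged from -0.84 to 1.32, *Trdn* from -0.97 to 0.15 and *Xirp2* from -1.0 to 0.49. For lacZ against WT with traction *Myh7* ranged from -4.21 to 0.14 and *Myl2* from -3.28 to 0.41. In sham *Tnnc1* was -0.01 with the replicate block and ranged from -0.56 to 0.65, *Myl2* from -3.16 to 0.70 and *Casq2* from -0.40 to 0.32. In the interaction *Myl2* ranged from -3.95 to 3.07 and *Tnnc1* from -0.93 to 1.71. The cause of these changes was not tested.

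The replicate numbers were not taken as pairs, since the labels tie them to no shared litter, batch or day and same-numbered libraries of different groups correlated at r of -0.421 to 0.337 over 18 pairs, 9 of them over 0.1. Differently numbered libraries of different groups correlated at r of -0.519 to 0.482, a range that reached higher. That 8 of 12 libraries correlated best with their own number is a hint from the data, and pairing is unresolved. The block raised the adjusted calls among the 51 genes in WT mice from 6 to 21 and made none in the other comparisons. Over all genes the calls for traction in WT mice went from 1725 to 1467. At an unadjusted p under 0.05 the block moved the counts among the 51 genes from 36 to 39 for traction in WT mice and from 8 to 22 for lacZ against WT with traction. It moved them from 5 to 0 in sham and from 13 to 27 for the interaction. Precision was limited by 3 mice a group and a standard error of about 0.88 (median over the 51 genes, log2) and, for *Myh7*, *Myl2* and *Myl3*, by low counts.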

Other observations

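The embryonic and neonatal heavy chains, which regenerating and newborn muscle uses, were present in these adult scars. Per kb, *Myh3* and *Myh8* together made up 2.34 to 14.0% of the sarcomeric heavy chain counts of 6 genes in WT sham, 14.9 to 26.2% in WT traction, 3.68 to 11.8% in lacZ sham and 8.78 to 24.3% in lacZ traction. The pooled exons of *Myh8* span 11772 bases and those of *Myh4* 6016, so these shares may understate *Myh8*. *Myh8* measured 236, 254 and 130 CPM in WT sham and 228, 78.2 and 17.2 CPM in WT traction, an estimate of -0.94 (SE 0.88, edgeR adjusted p = 0.495), and *Myh3* gave -0.71 (SE 0.93, edgeR adjusted p = 0.638). WT sham 1, by far the highest library for adult muscle genes, was not the highest for *Myh3* or *Myh8*, and it had the smallest share of them.

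The fetal form *Myl4* gave -0.41 (SE 0.91, edgeR adjusted p = 0.793) and *Tnnt2* -0.14 (SE 0.82, edgeR adjusted p = 0.925). None of the 9 tested genes of the developmental and cardiac list was called for traction in WT mice by edgeR (5.61% of all genes higher, 3.54% lower). At an unadjusted p under 0.05, 1 of the 9 was higher and 0 were lower (16.7 and 14.7% of all genes). The estimates of the 9 ran from -1.39 to 1.84, with a median standard error of 0.87. Their median was -0.41, beside -2.46 for the 51 adult genes, and the difference was not tested. Values with libraries left out were not computed for this list.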
